A study of Mus musculus with 6 samples.

Results

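RNA levels of the Ras-association domain family, the 10 genes Rassf1 to Rassf10, were measured in cochlear explants from wild-type mice, with and without neomycin. The 10 genes were taken by symbol from a table of 24421 gene symbols, all 10 were found, and all 10 passed the filter on low counts that left 15988 genes for testing. Cochleae of mice at postnatal day 2 (P2) were dissected, kept in culture for 12 h and exposed to 1 mM neomycin for 6 h. They were then held for a further 5 days in 10 µM EdU, a thymidine analog that labels DNA synthesis. The labels give this protocol text to every sample, and the control group of 3 samples was told from the neomycin group of 3 samples by treatment label, so any mock treatment of the controls was not given in the sources used here. Each sample pooled 6 to 8 cochleae, dissected free of the stria vascularis anlage, the modiolus and the tectorial membrane. Nothing in the labels says that the 3 samples of a group came from separate litters or culture days, so the p-values measure the spread between these samples, which may be technical. Total counts ran from 50471116 to 66068108 per sample, and levels are given as CPM, the reads of a gene scaled to a common library size, with TMM scaling, which adjusts for libraries of unequal make-up.

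RASSF proteins are scaffolds without enzyme activity that carry a Ras-association domain, which binds small GTPases of the Ras and Rap families. In RASSF1 to RASSF6, the C-terminal or classical group, a SARAH domain near the C-terminus binds the matching domain of the kinases MST1 and MST2 and of their adaptor SAV1, which places these proteins upstream of LATS and YAP in Hippo signaling. RASSF7 to RASSF10, the N-terminal group, have the Ras-association domain near the N-terminus and lack a SARAH domain. Several members act as tumor suppressors that are silenced by methylation of CpG-rich promoters. Neomycin is an aminoglycoside antibiotic that kills sensory hair cells (HCs), and the comparison asks which genes differ in explants that were damaged and then left to recover.

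Promoter sequence is printed for the called genes that have a promoter window, Rassf4, Rassf5 and Rassf6, and for the starts of Rassf1, which held more CpG. RefSeq promoter windows on GRCm38.p6, 300 bases long with 250 bases before the start site, were available for Rassf1 (2 windows, 1 for each main start), Rassf2, Rassf4, Rassf5, Rassf6 and Rassf7, and no window was found for Rassf3, Rassf8, Rassf9 and Rassf10. The stretches printed lie before the start site of each window and outside annotated exons, those of Rassf5 and of the downstream start of Rassf1 lie within the gene, and all are written 5′ to 3′ on the strand of the gene with each CpG in capitals. They cover chr6:116673953-116674086 on the minus strand for Rassf4, chr1:131200186-131200435 on the minus strand for Rassf5, chr5:90640658-90640777 on the minus strand for Rassf6, chr9:107551320-107551554 on the plus strand for the upstream start of Rassf1 and chr9:107554507-107554582 on the plus strand for its downstream start.
Rassf4: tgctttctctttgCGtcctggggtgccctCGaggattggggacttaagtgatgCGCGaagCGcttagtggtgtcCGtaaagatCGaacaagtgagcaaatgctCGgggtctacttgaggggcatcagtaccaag
Rassf5: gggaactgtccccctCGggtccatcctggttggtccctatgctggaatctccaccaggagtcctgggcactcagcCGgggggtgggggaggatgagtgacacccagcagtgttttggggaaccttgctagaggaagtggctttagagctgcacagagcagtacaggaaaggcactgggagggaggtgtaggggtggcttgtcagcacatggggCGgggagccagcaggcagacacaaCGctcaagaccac
Rassf6: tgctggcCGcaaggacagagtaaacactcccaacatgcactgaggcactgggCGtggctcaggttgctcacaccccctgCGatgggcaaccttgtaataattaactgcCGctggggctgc
Rassf1, upstream start: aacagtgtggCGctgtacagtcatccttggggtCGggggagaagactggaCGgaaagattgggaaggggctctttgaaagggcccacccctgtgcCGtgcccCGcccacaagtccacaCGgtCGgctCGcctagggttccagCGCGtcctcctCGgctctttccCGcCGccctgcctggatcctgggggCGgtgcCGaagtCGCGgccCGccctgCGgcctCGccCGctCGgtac
Rassf1, downstream start: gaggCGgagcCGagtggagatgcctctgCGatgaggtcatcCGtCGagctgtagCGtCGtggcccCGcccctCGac

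Over the full 300-base windows, both starts of Rassf1 and the start of Rassf7 held 27 CpG each, which placed them at the 85.8 percentile of all 32851 mouse windows. Rassf4 had 15, Rassf6 had 13 and Rassf2 had 11, against a median of 7 over all windows. The Rassf5 window had 5, the fewest of the 7, at the 43.6 percentile. It lies at the downstream end of the annotated starts of Rassf5, and the upstream start was not examined here. The stretch just after the RefSeq start was found in no GENCODE transcript of the gene for Rassf5 and Rassf2. For the other windows it was found, which by itself does not show that the starts coincide. The motif GGAATG, bound by the TEAD partners of YAP and searched on both strands, occurred in 1 of the 7 windows, that of Rassf2, and in 14.7% of all windows. Such a match is only a description of the letters, and methylation was not measured in these samples.

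After neomycin, Rassf4, Rassf5, Rassf8, Rassf9 and Rassf10 fell and Rassf6 rose, while Rassf1, Rassf2, Rassf3 and Rassf7 did not pass the test. A call was an adjusted p under 0.05 in edgeR's quasi-likelihood test over all 15988 genes with Benjamini-Hochberg adjustment, and 29.0% of all genes tested were called (16.1% lower and 12.9% higher). Against that background, 6 of the 10 members were called, 5 lower and 1 higher. With a fold change over 1.5 as well, 8.84% of all genes were called, and 3 members were, Rassf4, Rassf5 and Rassf8, all lower. The 3 neomycin samples did not overlap the 3 control samples in 6 of the 10 members, which are the 6 called ones, and in 43.5% of all genes tested. The median log2 fold change was −0.17 over the 10 members and −0.004 over all genes tested.

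**Figure D1:**
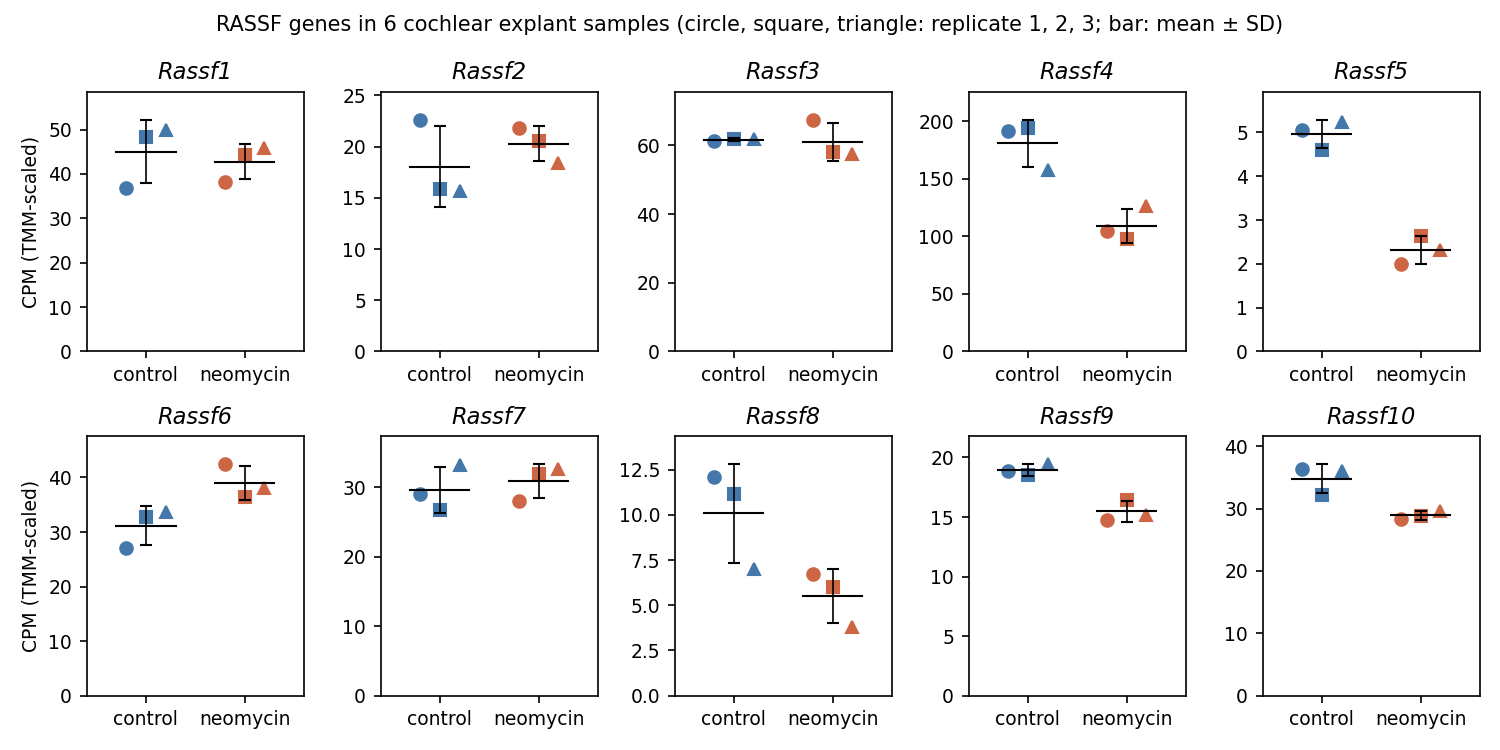
CPM of each RASSF gene in the 3 control (blue) and 3 neomycin (orange) samples, with circle, square and triangle for replicates 1, 2 and 3 and the mean ± SD in black. The neomycin points lie below every control point for Rassf4, Rassf5, Rassf8, Rassf9 and Rassf10 and above every control point for Rassf6.

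Among the C-terminal members, Rassf4 showed the smallest adjusted p of the family. The RASSF4 protein binds active K-Ras and MST1 and can promote apoptosis. The gene lies on chr6:116633008-116673952 of GRCm38, minus strand, and its level was 191, 194 and 157 CPM in control samples 1 to 3 and 104, 97.6 and 126 CPM in neomycin samples 1 to 3. Every neomycin sample was below every control sample, with control 3 and neomycin 3 nearest to each other. From 181 ± 20.4 to 109 ± 14.8 CPM (SD, n = 3), the level fell 1.66-fold, a log2 fold change of −0.73 (SE 0.11, 95% interval −0.96 to −0.50, edgeR adjusted p = 0.000524). With a trend of the counts on gene length removed, the log2 fold change was −0.56, which is under 1.5-fold. The gene shares no exon bases with Depp1, which overlaps its locus on the opposite strand.

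Rassf5 had the lowest counts of the family and the steepest decline. It encodes NORE1A, an effector of Ras, and the shorter RAPL, an effector of Rap1 that is known from integrin-dependent adhesion of lymphocytes. Reads per sample numbered 349, 240 and 294 in control and 106, 155 and 124 after neomycin. As CPM these were 5.06, 4.60 and 5.23 against 2.00, 2.63 and 2.31, so that every neomycin value lay well below the lowest control value. The mean went from 4.96 ± 0.325 to 2.31 ± 0.316 CPM (SD, n = 3), 2.15-fold lower (log2 fold change −1.10, SE 0.18, 95% interval −1.50 to −0.71, edgeR adjusted p = 0.00116). The locus, chr1:131176410-131245258 on the minus strand, has coding starts 45123 bases apart, and counts per symbol sum over NORE1A and RAPL. Of its exon bases 1.95% overlap Eif2d on the opposite strand, and the strand setting of the counting was not given in the sources used here.

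Rassf6 was the member that rose. RASSF6 binds MST2 and can promote cell death both through and apart from the Hippo kinases. The 3 controls had 27.0, 32.7 and 33.6 CPM, and the 3 neomycin samples had 42.5, 36.4 and 38.0 CPM. All neomycin samples were above all control samples, with a narrow gap between control 3 and neomycin 2. Means were 31.1 ± 3.56 and 39.0 ± 3.13 CPM (SD, n = 3), 1.25-fold higher after neomycin (log2 fold change 0.33, SE 0.10, 95% interval 0.11 to 0.54, edgeR adjusted p = 0.0263). The call was lost without control 1 (adjusted p = 0.0835), control 2 (0.0537), neomycin 1 (0.085) or neomycin 3 (0.0529), each time with the same direction. The gene occupies chr5:90603076-90640657 on the minus strand.

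The other 3 C-terminal members did not pass the test. Rassf1, the family's best known tumor suppressor, whose long protein binds microtubules and MST kinases, had 36.8, 48.4 and 49.9 CPM in control and 38.3, 44.2 and 45.9 CPM after neomycin. Replicate 1 was the lowest of both groups, the groups overlapped, and the interval of the log2 fold change ran from −0.32 to 0.17 around −0.07 (SE 0.11, edgeR adjusted p = 0.655). On chr9:107551555-107562267, plus strand, the coding starts of Rassf1 are 3028 bases apart, so its long and short proteins could not be told apart by counts per symbol, and 42.7% of its exon bases lie in the antisense gene Gm9917. Without strand, reads from Rassf1 and Gm9917 cannot be told apart.

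Rassf2, which binds K-Ras and stabilizes MST kinases, had 22.6, 15.8 and 15.7 CPM in control and 21.8, 20.6 and 18.4 CPM after neomycin. Control 1 stood above all neomycin samples while controls 2 and 3 stood below them. The log2 fold change was 0.17 (SE 0.14, 95% interval −0.13 to 0.46, edgeR adjusted p = 0.387), and Rassf2 would be called higher without control 1 (0.37, adjusted p = 0.0279) or with the trend on gene length removed (0.38, adjusted p = 0.0285). It lies on chr2:131989415-132030258, minus strand.

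Rassf3, whose product acts through MDM2 on p53, was the steadiest member in control, at 61.2, 62.0 and 61.8 CPM. After neomycin it had 67.5, 58.1 and 57.4 CPM, so that neomycin 1 lay above and the other two below all controls. The interval of the log2 fold change was −0.18 to 0.15 around −0.02 (SE 0.08, edgeR adjusted p = 0.897), which leaves out a change of 1.5-fold in either direction. The gene is at chr10:121410350-121476347 on the minus strand.

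In the N-terminal group, 3 of 4 genes fell and the median log2 fold change was −0.28, beside 2 lower and 1 higher of 6 and a median of −0.04 in the C-terminal group, and 29.0% of all genes tested were called. The 3 N-terminal calls came down to 1 when any of the 6 samples was left out, Rassf10 without control 2 and Rassf8 otherwise. In these fits the genes called in all ran from 2518 of 16177 (without neomycin 2) to 5341 of 16198 (without control 3). With all 6 samples they were 4629 of 15988. Whether the N-terminal and C-terminal groups differ was not tested. Rassf8, linked to adherens junctions and to the p53-binding ASPP proteins, fell most in the N-terminal group. Its level was 12.1, 11.2 and 6.99 CPM in control and 6.72, 6.00 and 3.82 CPM after neomycin. Replicate 3 was the lowest of each group, and control 3 was only slightly above neomycin 1. From 10.1 ± 2.73 to 5.51 ± 1.51 CPM (SD, n = 3), Rassf8 was 1.83-fold lower (log2 fold change −0.87, SE 0.23, 95% interval −1.36 to −0.38, edgeR adjusted p = 0.0131). Without control 2 the log2 fold change was −0.79 and the call was lost (adjusted p = 0.0611). The gene is on chr6:145746748-145821079, plus strand, with coding starts 73196 bases apart.

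Rassf9 and Rassf10 fell by smaller amounts. RASSF9 sits on recycling endosomes, where it binds the peptide-processing enzyme PAM. Rassf9 had 18.9, 18.5 and 19.5 CPM in control and 14.8, 16.5 and 15.2 CPM after neomycin, with a clear gap between the groups. It was 1.22-fold lower, from 18.9 ± 0.469 to 15.5 ± 0.878 CPM (SD, n = 3, log2 fold change −0.29, SE 0.09, 95% interval −0.49 to −0.09, edgeR adjusted p = 0.0317). This call was lost when any of the 6 samples was left out, with log2 fold changes from −0.34 to −0.26 and adjusted p from 0.0558 to 0.0944, and with the trend on gene length removed (−0.17, adjusted p = 0.201). The gene is at chr10:102512222-102549736, plus strand.

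Rassf10, which has been linked to mitotic spindles and is silenced by methylation in several tumors, had 36.3, 32.2 and 36.0 CPM in control and 28.3, 28.9 and 29.6 CPM after neomycin. The neomycin samples were close together and all below the controls. From 34.8 ± 2.32 to 28.9 ± 0.680 CPM (SD, n = 3), it was 1.20-fold lower (log2 fold change −0.27, SE 0.08, 95% interval −0.44 to −0.09, edgeR adjusted p = 0.0265). The call held without control 2 and was lost without control 1, control 3 or any of the 3 neomycin samples (adjusted p from 0.0591 to 0.0919). Its locus is chr7:112953962-112957457 on the plus strand.

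Rassf7, which takes part in spindle assembly and restrains the stress kinase activator MKK7, did not pass the test. Its level was 29.0, 26.8 and 33.2 CPM in control and 28.0, 32.0 and 32.6 CPM after neomycin, with the groups intermingled. The log2 fold change was 0.06 (SE 0.10, 95% interval −0.16 to 0.27, edgeR adjusted p = 0.693). It lies on chr7:141215860-141218658, plus strand.

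**Figure D2:**
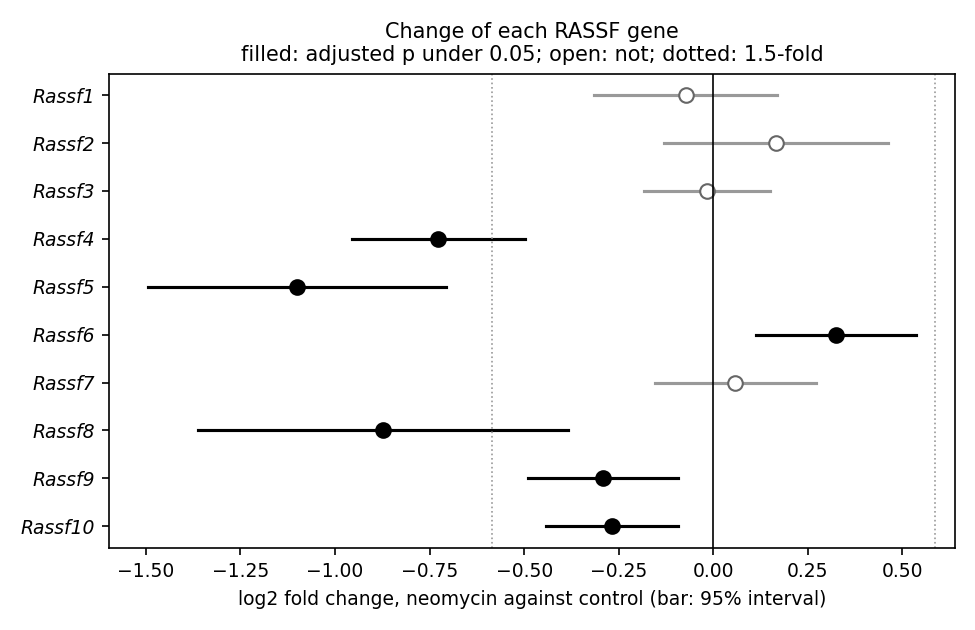
Log2 fold change of neomycin against control for each RASSF gene with its 95% interval, filled where the adjusted p was under 0.05, with dotted lines at 1.5-fold. Rassf5 (−1.10), Rassf8 (−0.87) and Rassf4 (−0.73) lie beyond the left dotted line, and Rassf6 (0.33) is the filled point on the right.

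To compare levels between members, CPM were divided by the exon length of each gene in kb. Rassf4 was the most abundant in control at 19.6 ± 2.22 CPM per kb (SD, n = 3), followed by Rassf3 at 16.1 ± 0.108, Rassf7 at 13.8 ± 1.53 and Rassf10 at 9.96 ± 0.664. Rassf1 at 7.71 ± 1.23 and Rassf6 at 7.30 ± 0.837 CPM per kb came next and overlapped each other. The 4 lowest were Rassf9 at 2.59 ± 0.0640, Rassf8 at 1.82 ± 0.491, Rassf2 at 1.5 ± 0.332 and Rassf5 at 1.24 ± 0.0814 CPM per kb. Among neighbors in this order, Rassf8 overlapped Rassf2, and Rassf2 overlapped Rassf5, and the other neighbors apart from Rassf1 and Rassf6 did not overlap. Set against all genes tested, Rassf4 was at the 83.5 percentile and Rassf5 at the 25.7 percentile of control levels per kb.

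After neomycin, Rassf3 (15.9 ± 1.47 CPM per kb), Rassf7 (14.3 ± 1.15) and Rassf4 (11.9 ± 1.61) led the order, and the ranges of Rassf3 and Rassf7 and of Rassf7 and Rassf4 overlapped. Rassf6 at 9.15 ± 0.734 CPM per kb then stood above Rassf10 at 8.27 ± 0.195 and Rassf1 at 7.32 ± 0.683. Rassf9 at 2.11 ± 0.120, Rassf2 at 1.69 ± 0.143, Rassf8 at 0.992 ± 0.272 and Rassf5 at 0.578 ± 0.0789 CPM per kb closed it. The order depends on the length used. With the longest transcript in place of all exon bases, Rassf4 stayed highest in control (28.0 CPM per kb) and Rassf5 lowest (1.42). But Rassf1 moved up from rank 5 to rank 3 with 19.0 CPM per kb, because its exons cover 5845 bases and its longest transcript 2375. Rassf7 moved to rank 2, Rassf3 to rank 4, Rassf6 to rank 5 and Rassf10 to rank 6, and Rassf2 moved above Rassf8. With this length the control range of Rassf1 overlapped those of Rassf7 and Rassf3.

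**Figure D3:**
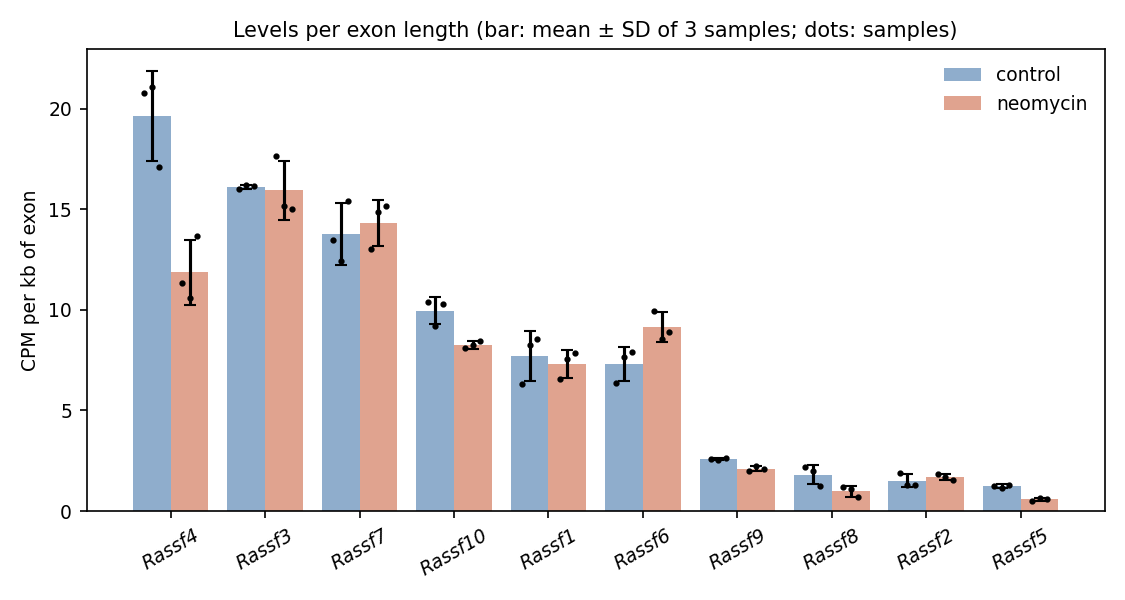
Levels in CPM per kb of exon of the 10 RASSF genes in control (blue) and neomycin (orange) samples, as means with SD over 3 samples and dots for the samples, ordered by the control mean. Rassf4 leads in control (19.6) and drops below Rassf3 (15.9) and Rassf7 (14.3) after neomycin.

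Summed over the family, RASSF transcripts came to 81.2, 81.9 and 82.0 CPM per kb in control and 72.1, 70.7 and 73.9 CPM per kb after neomycin. The groups were separate, with means of 81.7 ± 0.429 and 72.3 ± 1.63 CPM per kb (SD, n = 3). An exact two-sided permutation test of 3 against 3 samples cannot give a p below 0.1, so this sum was left as a description. Without Rassf4 the sums were 60.4, 60.8 and 64.9 CPM per kb in control and 60.8, 60.1 and 60.3 CPM per kb after neomycin, and the groups overlapped. The share of Rassf4 in the family sum was 25.6%, 25.8% and 20.9% in control and 15.7%, 15.0% and 18.5% after neomycin. Rassf6 went from 8.94 ± 0.980 to 12.7 ± 1.00% of the sum (SD, n = 3). Shares also grew for Rassf3 (19.75 to 22.08%) and Rassf7 (16.86 to 19.84%), whose levels did not pass the test, as the sum itself was lower after neomycin. The N-terminal genes together held 34.5 ± 2.21% in control and 35.6 ± 1.83% after neomycin.

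**Figure D4:**
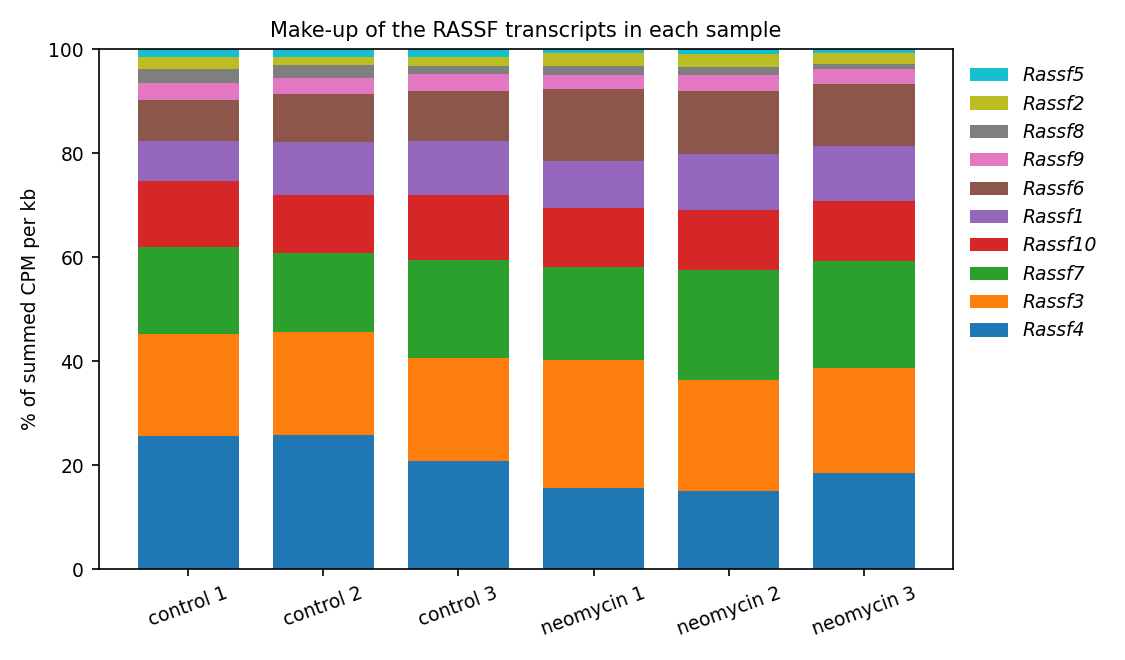
Share of each RASSF gene in the summed CPM per kb of the family, in %, for each of the 6 samples. The Rassf4 segment at the base covers 20.9 to 25.8% in the control samples and 15.0 to 18.5% in the neomycin samples.

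The genes whose products bind RASSF proteins were read from the same fit. In the Hippo kinase module, 5 of 7 genes fell, 0 rose, and 3 of the 5 fell by more than 1.5-fold, with a median log2 fold change of −0.33, where 29.0% of all genes tested were called and 8.84% with a fold change over 1.5. The 5 calls came down to 3 without neomycin 2, where the genes called in all came down from 4629 of 15988 to 2518 of 16177. Among the direct partners of the SARAH domain, Stk4, which encodes MST1, fell (log2 fold change −0.33, SE 0.08, edgeR adjusted p = 0.00799), a call lost without neomycin 2 (−0.28, adjusted p = 0.0568). Stk3, which encodes MST2, had 41.5 ± 2.76 CPM in control and 44.5 ± 0.792 CPM after neomycin (SD, n = 3, log2 fold change 0.10, 95% interval −0.06 to 0.26, edgeR adjusted p = 0.335). The adaptor gene Sav1 had 57.6, 58.9 and 60.4 CPM in control and 48.7, 54.1 and 51.7 CPM after neomycin, without overlap, and narrowly missed the threshold (log2 fold change −0.20, SE 0.07, edgeR adjusted p = 0.053).

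The genes of the LATS kinases and of their MOB1 activators all fell. Mob1a, an activator of the LATS kinases, had 33.8, 32.9 and 25.9 CPM in control and 17.8, 17.1 and 12.1 CPM after neomycin, 1.97-fold lower (log2 fold change −0.98, SE 0.14, edgeR adjusted p = 0.000539). Replicate 3 was the lowest of each group, as for Rassf8. Its relative Mob1b (log2 fold change −0.81, adjusted p = 0.00157) and the kinase gene Lats2 (−0.59, adjusted p = 0.000762) also fell in edgeR's test. With the trend on gene length removed, Mob1b (−0.56) and Lats2 (−0.48) were under 1.5-fold and Mob1a (−0.95) was not. Lats1 fell less (−0.28, adjusted p = 0.0225), a call lost without control 2 (0.115), neomycin 2 (0.0832) or neomycin 3 (0.0956) and with the trend on gene length removed (0.11).

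Of the 11 Ras and Rap GTPase genes, 2 rose, 1 fell and 8 did not pass the test, with a median log2 fold change of 0.09. The share called, 27.3%, was near the 29.0% of all genes tested. Hras rose 1.20-fold, from 46.5 ± 4.39 to 55.9 ± 4.65 CPM (SD, n = 3, edgeR adjusted p = 0.0394), although control 3 at 51.5 CPM was above neomycin 1 at 51.0 CPM. Rap1a, the GTPase that binds RAPL, rose 1.20-fold, from 63.5 ± 1.15 to 76.0 ± 5.88 CPM (SD, n = 3, edgeR adjusted p = 0.0206), without overlap. Rap2a fell 1.17-fold, from 41.6 ± 1.78 to 35.6 ± 1.39 CPM (SD, n = 3, edgeR adjusted p = 0.0403). None of the 3 calls held without neomycin 2 (adjusted p = 0.122, 0.0909 and 0.103 for Hras, Rap1a and Rap2a), and none held without control 2 (0.148, 0.0546 and 0.157) or neomycin 3 (0.154, 0.0979 and 0.0841). Hras and Rap2a also lost the call without control 1 (0.103 and 0.0533), and Rap2a without control 3 (0.0564) and neomycin 1 (0.116). Rap1a lost it with the trend on gene length removed (log2 fold change 0.14, edgeR adjusted p = 0.129).

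Among 12 other partners, Mdm2, the ubiquitin ligase of p53 with which RASSF proteins interact, fell 1.19-fold from 62.0 ± 3.76 to 51.9 ± 2.37 CPM (SD, n = 3, edgeR adjusted p = 0.0221), and the other 11 did not pass the test. The share called, 8.33%, was below the 29.0% of all genes tested. The Mdm2 call was lost without control 2 (0.102), neomycin 1 (0.0569) or neomycin 2 (0.103). Pam, the partner of RASSF9, had 275 ± 7.47 CPM in control and 251 ± 12.9 CPM after neomycin (SD, n = 3, edgeR adjusted p = 0.182). Itgal, an integrin subunit in the RAPL pathway, was near 1 CPM or below in every sample (means of 0.780 and 0.865 CPM, edgeR adjusted p = 0.765). Pam and Itgal were named after their values were seen.

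**Figure D5:**
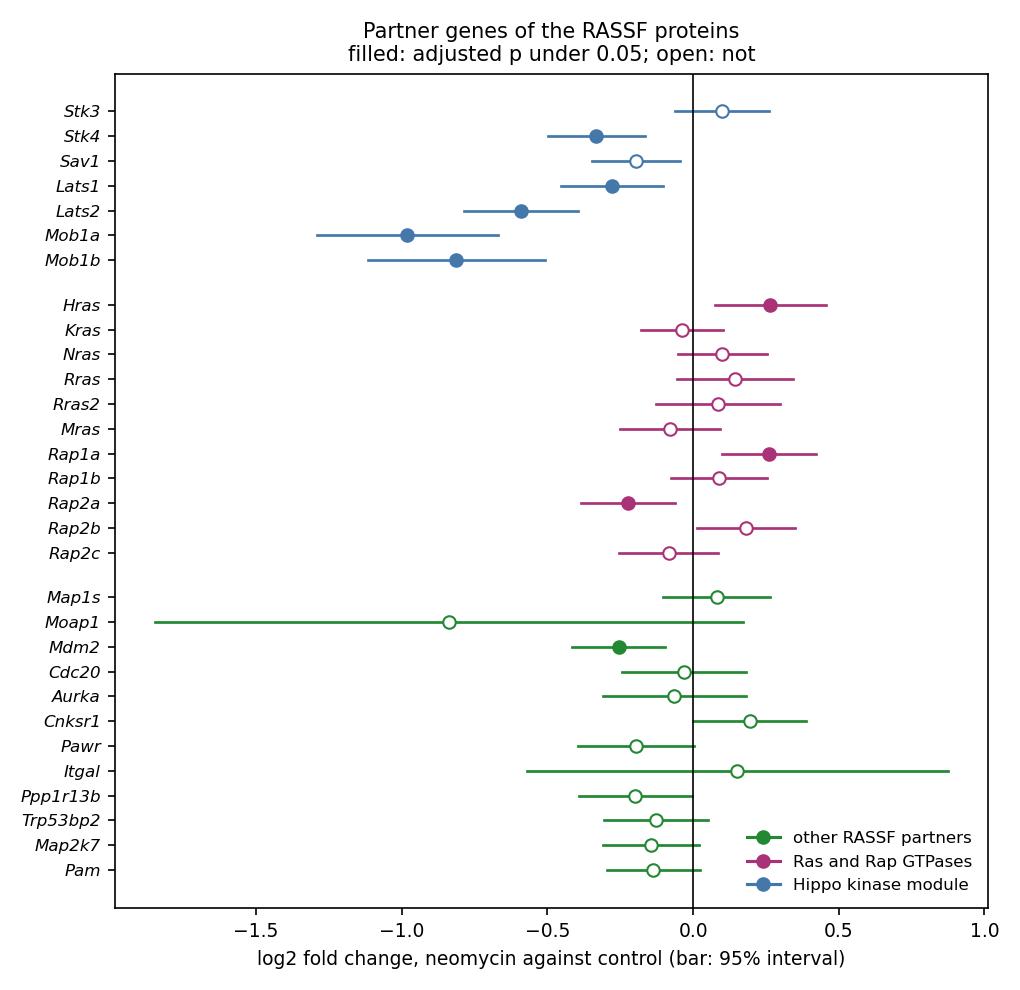
Log2 fold change of neomycin against control, with its 95% interval, for 7 Hippo kinase module genes (blue), 11 Ras and Rap GTPase genes (purple) and 12 other partners (green), filled where the adjusted p was under 0.05. The 5 filled Hippo points lie left of 0, from −0.98 for Mob1a to −0.28 for Lats1, while the filled GTPase points lie within 0.27 of 0.

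Marker RNA of some cell types also differed between the groups, and the part of cell make-up in the results above was not tested. In bulk samples, fewer cells of a type and less RNA per cell cannot be told apart. Beside the counts below, 29.0% of all genes tested were called. The share called was 91.7% of HC, 75% of endothelial and 50% each of macrophage and neuron markers. It was nearer to that of all genes in supporting cell markers (33.3%) and in mesenchyme and Schwann cell and glia markers (37.5% each). Of 12 HC markers 11 fell, Atoh1 being the exception, and their summed level was 725 to 835 CPM in control and 241 to 297 CPM after neomycin. The 12 supporting cell markers, 3 lower and 1 higher, summed to 1530 to 1576 CPM in control and 1545 to 1706 CPM after neomycin. Without Gjb2, the most abundant of them, the sum was 984 to 1015 CPM in control and 945 to 1002 CPM after neomycin. Of 12 macrophage markers 6 rose, with sums of 187 to 241 CPM in control and 259 to 315 CPM after neomycin. But 3 were called without neomycin 2 and 2 with the trend on gene length removed. In these settings 2518 of 16177 and 3755 of 15988 genes in all were called. Of 8 endothelial markers 6 fell, but the list summed to 280.6 to 313.5 CPM in control and 266.8 to 318 CPM after neomycin, which overlap. Emcn, which holds most of the list, did not pass the test (log2 fold change 0.12, edgeR adjusted p = 0.329). Without Emcn the sum went from 42.6 to 54.6 CPM in control to 19.9 to 21.4 CPM after neomycin. Of 8 neuron markers 4 fell, from a sum of 98.5 to 174 CPM to a sum of 67.5 to 76.0 CPM. The 8 mesenchyme markers (2 lower, 1 higher) summed to 4980 to 5584 CPM in control and 4994 to 5254 CPM after neomycin. Without Lum, the most abundant of them, the sum was 2108 to 2567 CPM in control and 1985 to 2070 CPM after neomycin, without overlap. The 8 Schwann cell and glia markers (2 lower, 1 higher) summed to 557 to 628 CPM in control and 588 to 594 CPM after neomycin. Without Sox10, the most abundant of these, the sum was 200 to 258 CPM in control and 239.5 to 248.8 CPM after neomycin. Of the 6 lymphocyte markers, Cd3d and Ms4a1 had 0 counts in all 6 samples, and no marker exceeded 25 counts in any sample. The list summed to 0.107 to 0.728 CPM in control and 0.390 to 0.559 CPM after neomycin.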

How the data were processed

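The authors processed base calls with Casava 1.8, trimmed reads with trimmomatic 0.23, aligned them to mm10 with Hisat2 and counted them with HTSeq on the UCSC mm10 annotation. The deposited counts are whole numbers of reads per gene symbol, not normalized, for 3 control and 3 neomycin samples. The strand setting, the handling of reads with several matches and the annotation date were not given in the sources used here.

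Libraries were scaled with TMM and genes filtered with filterByExpr in edgeR 4.0.16 (R 4.3.3), and neomycin was tested against control by edgeR's quasi-likelihood F test, adjusted over all 15988 genes (Benjamini-Hochberg). SE is |log2 fold change| over the root of F. The study's methods used DESeq2, kept here as an alternative (DESeq2 1.42.0), beside limma-voom (limma 3.58.1), other scalings, filters and thresholds, a replicate block, a lowess correction on exon length and leaving out each sample. Exon lengths and loci came from GENCODE vM21 (GRCm38), in which 23376 symbols matched directly and 678 through an older symbol. The scripts were tested on simulated data. Counts of 3 or fewer per library were taken as the floor, which no RASSF gene reached. Intervals and floors cover counting error and the spread between samples only. Members and gene lists were chosen with earlier results of these data known. The rule for names took all members, all Hippo kinase module genes and the called genes of the other partner lists.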

Additional observations from a re-analysis of the deposited data

How the results depend on the processing

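Rassf4 and Rassf5 kept direction and call in all 16 alternatives (log2 fold changes from −0.84 to −0.56 and from −1.20 to −1.01), as did Mob1a, Mob1b and Lats2. Of the 10 members, 6 were called with DESeq2, limma-voom, RLE or upper quartile scaling, and both other filters. With the length correction 6 were called as well, 4 lower and 2 higher, Rassf2 in place of Rassf9. At an adjusted p under 0.01, 2 members (Rassf4 and Rassf5), 4 of 9 partner genes and 2205 of 4629 genes in all remained called. Leaving out 1 sample gave 3 to 4 members, 3 to 8 partner genes and 2518 to 5341 genes, with 3 members without control 2, neomycin 1 or neomycin 3. The lowest total, 2518, came without neomycin 2, and 2567 without control 2.

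Log2 fold changes near 0 changed sign. Rassf1 went from −0.07 to 0.0017 with the length correction, 0.0096 with it and the replicate block, 0.0197 without control 3 and 0.0006 without neomycin 1, its range over single samples left out being −0.19 to 0.0197. Rassf3 went from −0.02 to 0.0049 with upper quartile scaling, 0.0182 without neomycin 2 and 0.0256 without neomycin 3 (left-out range −0.0946 to 0.0256). Rassf7 went from 0.06 to −0.11 with the length correction, −0.10 with it and the replicate block and −0.0068 without control 2 (left-out range −0.0068 to 0.16). None of these passed the test in any of these settings.

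Samples with the same replicate number correlated weakly (0.03 to 0.17 for deviations from the group means), so the numbers were not taken to pair the samples, although 5 of 6 samples correlated best with their own number. With the replicate block, 6014 genes, 12 partner genes and 6 members were called, and Sav1 passed the test (adjusted p = 0.0223). The block lowered the SE of Rassf8 from 0.23 to 0.12 (log2 fold change −0.87, edgeR adjusted p = 0.000387) and that of Mob1a from 0.14 to 0.08. The SE of Rassf4 and Rassf5 stayed at 0.11 and 0.18. With the block and the length correction together, 4674 genes were called, Rassf2 (0.40, adjusted p = 0.0114) and Stk3 (0.19, adjusted p = 0.0419) were called higher, and Rassf9 lost its call (−0.17, adjusted p = 0.162). Sav1 also passed with a filter of 1 CPM in 3 samples (adjusted p = 0.0447), Rap2a missed the threshold with upper quartile scaling (0.0583), and 2 macrophage markers were called with the length correction in place of 6. Other causes of these shifts were not tested. The sums per kb with the longest transcripts were 117 CPM per kb in control and 105 CPM per kb after neomycin. Depth limits Rassf5 most, with 106 to 349 counts per sample.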
